A study of Mus musculus with 15 samples.

Results

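The Dlk1-Dio3 domain is an imprinted stretch of mouse chromosome 12, and 6 of its genes are described here in mouse embryonic stem cells (ESC) with and without the chromatin protein Hmga1. These are the noncoding RNAs Meg3, Rian and Mirg and the protein-coding genes Dlk1, Rtl1 and Dio3. They were chosen by gene symbol from the 21662 genes of the deposited count tables, and for their count levels in these same libraries, so their values are a description and carry no test. All 6 were close to silent, with between 0 and 69 counts in each of 15 libraries. In the KO experiment the noncoding RNAs differed among the lines. Rian was higher in both Hmga1 KO libraries than in any WT library, and Meg3, Rian and Mirg were lowest in the Hmga2 add-back. The ratios of the summed coding genes to WT lay between 0.746 and 0.912 in its 3 lines over the shared batches a and b, and between 0.678 and 0.829 over all WT libraries.

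RNA-seq was made from the parental WT line, of mixed 129Sv-C57Bl/6 background, and from lines derived from it. All lines carry the biotin ligase BirA and were grown in serum with LIF, on feeder cells or gelatine. Hmga1 KO is a single clone with frameshift mutations made by Cas9, and the Hmga1 add-back and Hmga2 add-back carry in addition the respective tagged cDNA, driven by the CAG promoter from a single targeted site. In a separate experiment, WT was compared with a clone in which a pair of guides had removed the coding part of Hmga1 ("full deletion"). The KO experiment holds 9 libraries, of which 3 are WT and 2 come from each of KO, Hmga1 add-back and Hmga2 add-back. The full-deletion experiment holds 3 WT and 3 full-deletion libraries. Each genotype is 1 cell line, so a difference between lines cannot be told apart from a difference between clones.

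The libraries held between 13465399 and 34952136 counts on genes, so that 1 count is worth between 0.0280 and 0.0775 CPM (counts scaled to library size, here with the TMM factors of edgeR). Hmga1 was at 340 ± 26.1 CPM (SD, n = 3) in WT and 11.8 ± 0.766 CPM (n = 3) in the full deletion. In the KO experiment it was at 320 ± 128 CPM (n = 3) in WT and 156 ± 85.4 CPM (n = 2) in KO, whose frameshift does not remove the transcript. In the Hmga1 add-back Hmga1 was at 153 ± 43.3 CPM (n = 2), so its counts did not rise above KO there. The paper reports the return of the protein by Western blot. Hmga2 was at 235 ± 19.2 CPM (n = 2) in the Hmga2 add-back and 17.5 ± 5.67 CPM (n = 3) in WT. The ES cell markers were high in every group, with a summed level between 4437 and 8021 CPM over 10 genes. In the full deletion this sum was 4437 to 4569 CPM, below the 5005 to 8021 CPM of its WT. WT b of the full-deletion experiment stood apart, with a TMM factor of 0.752 and 8.78% of its counts on its top 10 genes. Ratios for that experiment are therefore also given without it.

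Imprinted genes are transcribed from 1 parental copy. In this domain, Dlk1, Rtl1 and Dio3 are expressed from the paternal chromosome, and Meg3, Rian and Mirg, together with clusters of snoRNAs and miRNAs, from the maternal one. A differentially methylated region between Dlk1 and Meg3, the IG-DMR, decides which set is active. When both copies of this region are methylated, as happens in some cultured ESC and induced pluripotent lines, the maternal RNAs are silent. DNA methylation and the parent of origin of the reads were not measured here.

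On the NCBIM37 (mm9) assembly of chromosome 12, Dlk1 lies at 110691033 to 110701546 and Meg3 at 110779211 to 110809936, both on the plus strand. Rtl1 follows on the minus strand, at 110827404 to 110838540. Rian, at 110842155 to 110899919, and Mirg, at 110973191 to 110987665, are again on the plus strand. Dio3 closes the domain at 111517278 to 111519307. Rtl1 is overlapped by a maternal antisense transcript, from which it is kept apart here because reads were counted only on the strand of the gene. The windows around the annotated starts of the 3 noncoding RNAs, which followed each other across the lines, are printed below with those of the coding genes Dlk1 and Dio3. Each holds 250 bases before the start and the first bases of the transcript, from the RefSeq promoter table of GRCm38.p6, 5′ to 3′. The capitals mark CpG dinucleotides, the sites of DNA methylation.
Meg3: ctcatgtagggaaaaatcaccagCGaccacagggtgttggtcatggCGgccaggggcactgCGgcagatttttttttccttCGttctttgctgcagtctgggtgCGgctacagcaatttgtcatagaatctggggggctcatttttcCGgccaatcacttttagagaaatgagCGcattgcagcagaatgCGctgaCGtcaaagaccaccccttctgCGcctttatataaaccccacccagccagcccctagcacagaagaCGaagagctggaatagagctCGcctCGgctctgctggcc
Rian: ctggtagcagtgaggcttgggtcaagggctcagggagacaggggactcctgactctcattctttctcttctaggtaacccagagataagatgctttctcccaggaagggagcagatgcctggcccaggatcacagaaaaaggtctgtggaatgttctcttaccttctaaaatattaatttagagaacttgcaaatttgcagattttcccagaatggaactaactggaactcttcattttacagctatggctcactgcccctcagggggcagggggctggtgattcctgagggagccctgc
Mirg: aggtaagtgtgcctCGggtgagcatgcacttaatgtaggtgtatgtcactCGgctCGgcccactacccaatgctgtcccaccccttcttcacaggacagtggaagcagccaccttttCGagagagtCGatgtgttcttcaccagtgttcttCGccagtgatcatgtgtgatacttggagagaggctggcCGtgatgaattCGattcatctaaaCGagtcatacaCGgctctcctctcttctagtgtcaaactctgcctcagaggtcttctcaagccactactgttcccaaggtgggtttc
Dlk1: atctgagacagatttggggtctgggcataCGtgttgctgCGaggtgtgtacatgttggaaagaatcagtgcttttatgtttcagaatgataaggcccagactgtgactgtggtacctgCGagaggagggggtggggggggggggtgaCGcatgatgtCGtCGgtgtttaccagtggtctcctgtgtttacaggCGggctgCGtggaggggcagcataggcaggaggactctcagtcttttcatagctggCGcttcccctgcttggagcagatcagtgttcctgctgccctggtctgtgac
Dio3: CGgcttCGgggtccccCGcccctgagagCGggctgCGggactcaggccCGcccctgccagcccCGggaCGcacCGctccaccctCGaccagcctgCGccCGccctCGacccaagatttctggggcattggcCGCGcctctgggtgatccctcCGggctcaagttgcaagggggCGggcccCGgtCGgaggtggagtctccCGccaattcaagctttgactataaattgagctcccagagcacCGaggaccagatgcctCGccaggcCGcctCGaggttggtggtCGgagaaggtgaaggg

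These windows matched NCBIM37 at chr12:110778956-110779255 (Meg3), chr12:110841905-110842204 (Rian), chr12:110972941-110973240 (Mirg), chr12:110690783-110691082 (Dlk1) and chr12:111517190-111517489 (Dio3), all on the plus strand. The CpG count was 13 for Meg3, 10 for Mirg, 9 for Dlk1 and 25 for Dio3, against a median of 7 over the 32851 windows of the table. Rian held none, as did 5.43% of all windows. A second Meg3 window of the table, at chr12:110783358-110783657, held 1. Fewer CpGs than in the Dio3 window were found in 81.6% of all windows, and fewer than in the first Meg3 window in 62.1%. The letters TGCCGC, the hexamer bound by the imprint-protecting factor ZFP57 when methylated, occurred once in the first Meg3 window and in none of the others, searched on both strands. They occur in 11.6% of all windows. Rtl1 has no window in the table.

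In WT, Dio3 was the highest of the 6 genes per length in both experiments. The levels in this paragraph are in RPKM, in which CPM is divided by exonic length, and which allows genes of different length to be compared. In WT of the KO experiment (n = 3), Dio3, the enzyme that inactivates thyroid hormone, was at 0.292 ± 0.0448 RPKM (SD). Dlk1, a membrane protein related to the Notch ligands, was at 0.106 ± 0.04995 RPKM. Rian, the host of a snoRNA cluster, followed at 0.0616 ± 0.0113 RPKM. Meg3 was at 0.0457 ± 0.0376 RPKM, Mirg, the host of a miRNA cluster, at 0.0391 ± 0.00662 RPKM, and the retrotransposon-derived Rtl1 at 0.0358 ± 0.0270 RPKM. Dio3 was above Dlk1 in every WT library of this experiment, and from Dlk1 down to Rtl1 each mean differed from the next by less than the larger of the 2 SDs. In WT of the full-deletion experiment (n = 3), Dio3 was at 0.138 ± 0.0653 RPKM and Rtl1 was second, at 0.0533 ± 0.0236 RPKM. Mirg was last there, at 0.00362 ± 0.00627 RPKM. Over all 15 libraries, the median rank of each gene lay between the 25.6th percentile (Mirg) and the 40.0th (Dio3) of all genes by RPKM.

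Most genes on either side of the domain were expressed at higher levels. Of 21 annotated genes in the tables within 1 Mb of it, 10 beyond Dlk1 and 11 beyond Dio3, 17 had a higher mean RPKM in WT of the KO experiment than any gene of the domain. In WT of the full-deletion experiment it was 16 of 21. Begain, the nearest of them on the Dlk1 side, was at 0.334 ± 0.0178 RPKM (n = 3). Further out, Yy1, a zinc-finger transcription factor, was at 57.6 ± 5.07 RPKM and Wars, a tRNA synthetase, at 45.2 ± 6.37 RPKM. Ppp2r5c, a phosphatase subunit and the nearest gene beyond Dio3, was at 27.0 ± 3.90 RPKM, and Hsp90aa1, a heat shock chaperone, at 1424 ± 542 RPKM. The plot of levels against distance gives all of them.

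**Figure D1:**
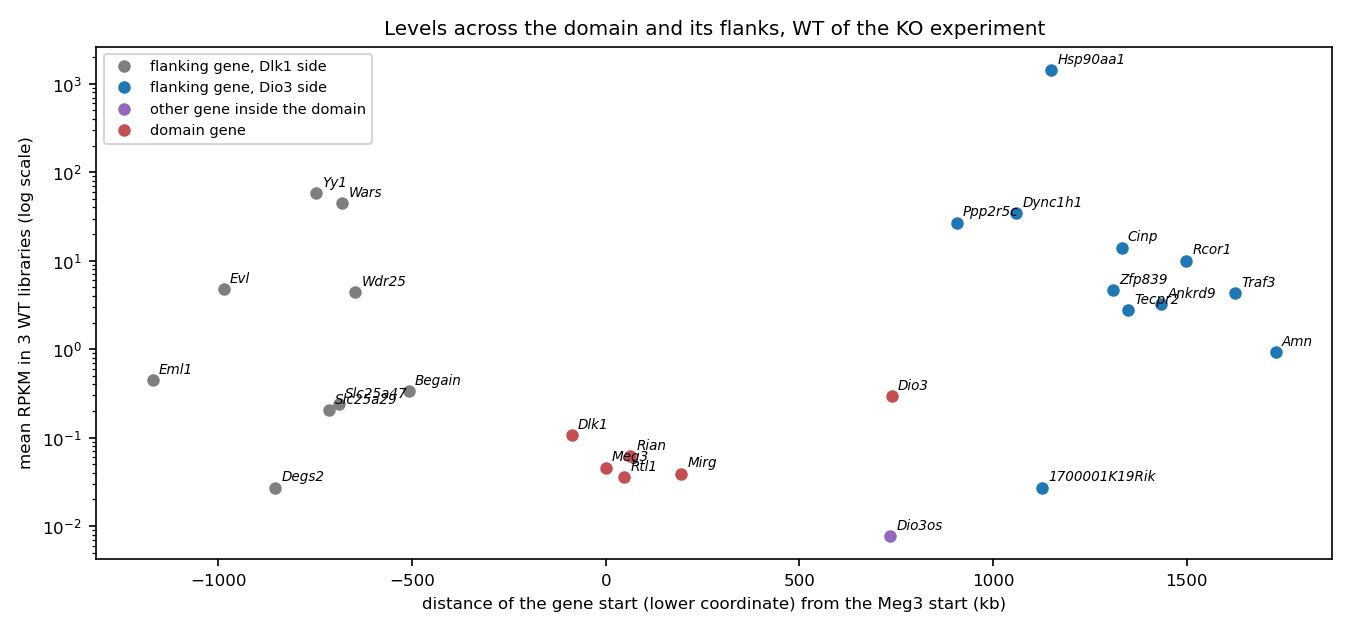
Mean RPKM in the 3 WT libraries of the KO experiment (log axis) against the distance of each gene's lower coordinate from the start of Meg3 in kb, for genes with at least 500 exonic bases. The domain genes (red) lie between 0.0358 and 0.292 RPKM, and 17 of the 21 flanking genes (1 of them, a miRNA gene, is too short to be shown) lie above all of them.

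Small RNA genes inside the domain were at or near 0. Of 55 annotated miRNA genes, 51 had no count in any of the 15 libraries and the other 4 had 4 counts in all. These are reads on hairpin genes and do not measure mature miRNAs. Of 2 snoRNA genes, 1 had 8 counts in all, and the long noncoding RNAs Dio3os and 6430411K18Rik had 12 and 10.

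Imprinted genes elsewhere in the genome were for the most part expressed in the same libraries. Of 24 genes listed as expressed from the maternal allele outside this domain, 18 were above every domain gene in WT of the KO experiment and 14 reached 1 RPKM. Of 25 genes listed as expressed from the paternal allele, it was 22 and 17. The alleles that these genes use in ESC were not measured, so levels of a single allele are not compared. The median was 4.28 RPKM for the maternal and 5.20 RPKM for the paternal list, while the highest domain gene was at 0.292 RPKM. H19, the maternal noncoding RNA of another imprinted region, was at 50.3 ± 6.16 CPM (n = 3). Factors known to set or keep imprints, among them DNA methyltransferases, Tet enzymes, Zfp57 and Trim28, were all present, with 21 of 21 at 1.29 RPKM or more in that WT group.

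**Figure D2:**
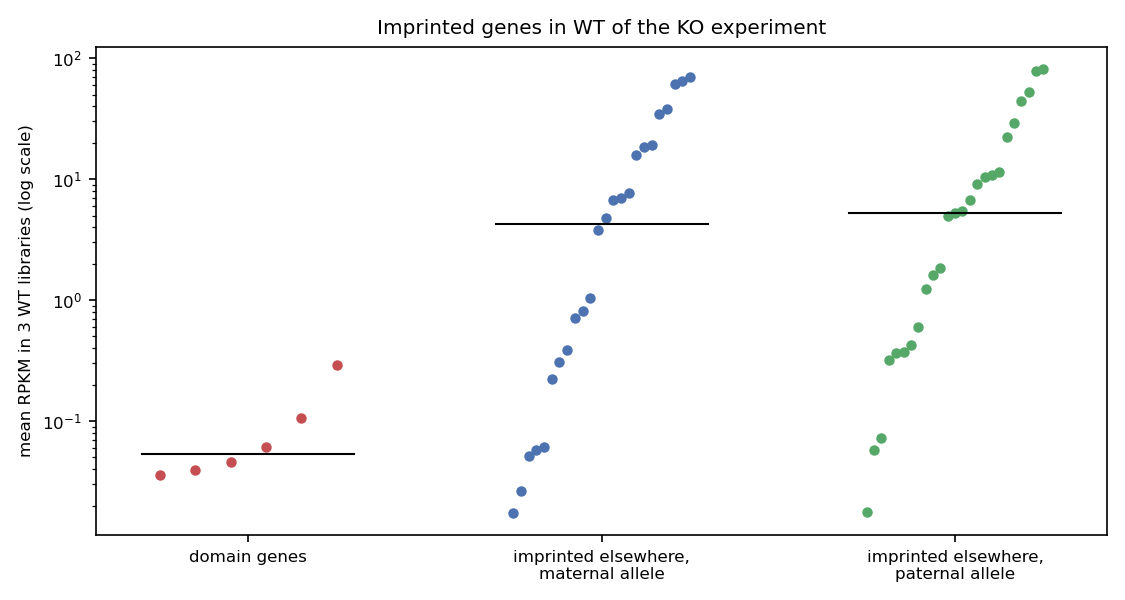
Mean RPKM in the 3 WT libraries of the KO experiment (log axis), 1 point per gene in ascending order, for the 6 domain genes and for imprinted genes elsewhere, by the allele they are expressed from. Black lines are medians, at 4.28 RPKM for the maternal and 5.20 RPKM for the paternal list.

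Meg3, the maternal noncoding RNA that opens the noncoding part of the domain, had 17, 2 and 28 counts in the WT libraries a, b and c. The 2 KO libraries held 16 (a) and 38 (b). Counts were 8 and 3 in the Hmga1 add-back and 2 and 0 in the Hmga2 add-back, where a count of 0 allows up to 0.211 CPM (3 counts, or 0.260 CPM as the upper bound of the exact Poisson interval). In CPM, WT libraries lay at 0.537, 0.155 and 1.16 and KO libraries at 0.449 and 2.89, so that WT and KO overlapped. Both add-backs lay below both KO libraries, and the Hmga2 add-back also below all WT libraries in measured values, although the limit of its library with 0 counts is above WT b.

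Rian had the most counts of the 6 genes. Batches a, b and c of WT held 13, 5 and 13 of them, KO a held 50 and KO b 69. There were 13 and 7 in the Hmga1 add-back and 1 and 1 in the Hmga2 add-back. Its CPM was 0.411, 0.388 and 0.539 in WT, 1.40 and 5.24 in KO, 0.373 and 0.525 in the Hmga1 add-back and 0.0296 and 0.0704 in the Hmga2 add-back. KO was above every other line without overlap, the Hmga1 add-back was within the range of WT but for its lower library, and the Hmga2 add-back was below all others.

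Mirg, at the far end of the noncoding part, had 5, 2 and 5 counts in WT, 7 and 8 in KO, 1 and 1 in the Hmga1 add-back, and 1 and 0 in the Hmga2 add-back. Its WT libraries lay between 0.155 and 0.207 CPM and its KO libraries at 0.196 and 0.608 CPM. The KO library a thus fell inside the WT range and KO b above it, and all 4 add-back libraries were below WT and KO. With so few counts, the 95% interval of each library's level (exact Poisson, counting error only) is wide, from 0.262 to 1.198 CPM in KO b.

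The coding genes showed no such order. Dlk1 had 20, 3 and 16 counts in WT, 18 and 3 in KO, 10 and 2 in the Hmga1 add-back, and 13 and 4 in the Hmga2 add-back. Rtl1 had between 1 and 10 counts in each of the 9 libraries. Dio3 had 20, 6 and 13 counts in WT, 25 and 4 in KO, 25 and 5 in the Hmga1 add-back, and 14 and 11 in the Hmga2 add-back. Its group means, between 0.503 and 0.594 CPM, were the most even of the 6 genes, and for all 3 coding genes the range of each line overlapped that of WT.

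**Figure D3:**
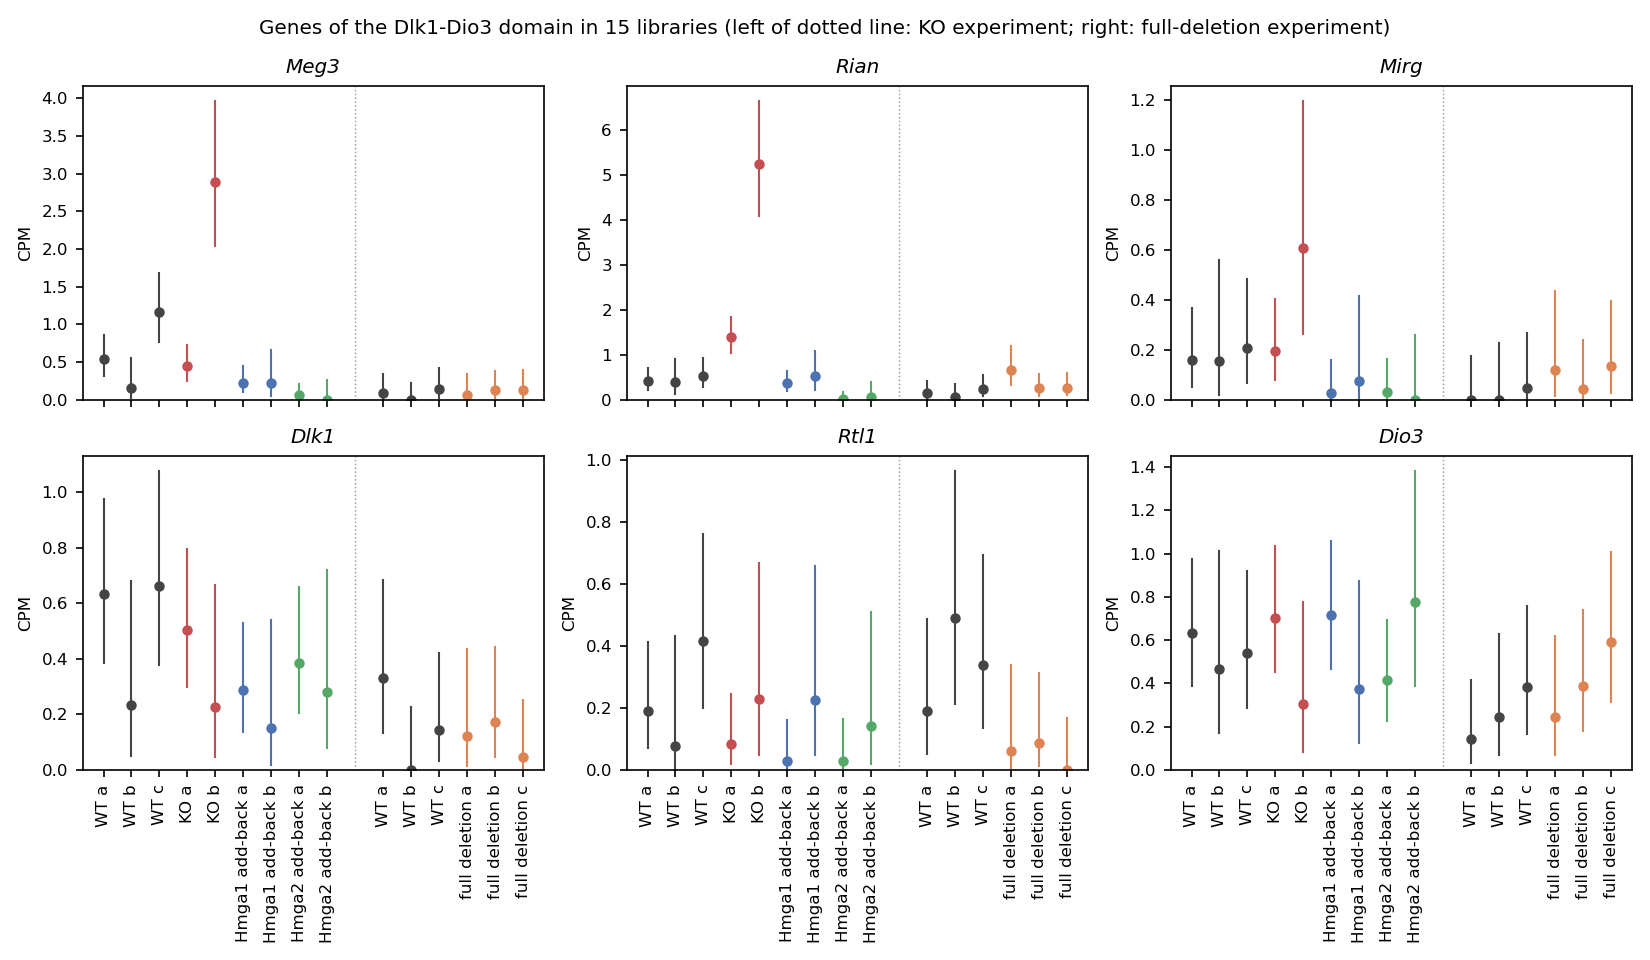
CPM of each domain gene in each library, as a point with its exact 95% Poisson interval, which covers counting error only, with the KO experiment left and the full-deletion experiment right of the dotted line. In the KO experiment, Rian in KO (1.40 and 5.24 CPM) lies above WT (0.388 to 0.539 CPM), and Meg3, Rian and Mirg are lowest in the Hmga2 add-back. The coding genes overlap between its lines. WT b of the full-deletion experiment, with Meg3 and Mirg at 0 and Rian at 0.0612 CPM, is as low as the Hmga2 add-back.

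The comparison of KO with WT asks what changes when Hmga1 is lost. Over batches a and b, which both groups share, Rian had 119 counts in KO and 18 in WT, a ratio of normalized counts of 6.03 (95% interval 3.66 to 10.5). For Meg3 the ratio was 2.59 (1.51 to 4.63) and for Mirg 1.96 (0.750 to 5.67). With WT c included, which had the most Meg3 counts of WT, the Meg3 ratio was 1.62 (1.07 to 2.44) and that of Rian 5.40 (3.61 to 8.29). The 3 noncoding RNAs together had a ratio of 3.90 (2.79 to 5.54), and the 3 coding genes, with 56 counts in each group, 0.912 (0.618 to 1.35). With WT c these were 2.94 (2.27 to 3.82) and 0.829 (0.585 to 1.17). These intervals come from counts alone and leave out the spread between cultures, which was large.

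Within batch a, the ratio of KO to WT was 3.41 (1.83 to 6.85) for Rian and 0.835 (0.395 to 1.76) for Meg3. Within batch b it was 13.5 (5.52 to 43.0) for Rian and 18.6 (4.81 to 159) for Meg3, the latter resting on 2 counts in WT b. The interval lay above 1 in both batches for Rian, and in batch b but not in batch a for Meg3. The libraries of the same KO clone also differed from each other. KO b had 6.43 times (3.50 to 12.4) the Meg3 and 3.74 times (2.56 to 5.49) the Rian level of KO a, while for the 3 coding genes together the ratio was 0.589 (0.265 to 1.18). In a bulk sample, more cells with an active domain and more RNA per cell cannot be told apart.

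Of the 6 genes, 1, Rian, did not overlap between KO and WT. Every KO library was above every WT library for 9.03% of all genes with a mean count of 1 to 20 in this experiment. In the edgeR quasi-likelihood fit, Meg3, Rian and Dio3 passed the minimum mean count of 10, and Dlk1 (9.89), Rtl1 and Mirg (3.33 each) did not. Meg3 and Rian passed only through the KO libraries, since their mean counts without these were 8.57 and 7.57. A call needed an adjusted p below 0.01 and an absolute log2 difference of 1 or more. By this rule 0 of these 3 genes were called, beside 0.0216% of all genes. At an unadjusted p under 0.05 it was 1 of 3 (12.6% of all genes), and DESeq2 and limma-trend called 0 as well. The fitted log2 fold change was 2.66 (SE 0.52) for Rian, 1.56 (SE 0.88) for Meg3 and -0.05 (SE 0.57) for Dio3. Nothing is read from these calls, since the genes were chosen with their levels known.

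The add-backs ask whether Hmga1 or Hmga2 changes expression when returned to the KO clone. They share their controls with the comparison above. In the Hmga1 add-back, Rian had 0.170 times (95% interval 0.100 to 0.275) its level in KO, Meg3 0.206 times (0.0973 to 0.399) and Mirg 0.135 times (0.0150 to 0.581). For Meg3 this rests on KO b, since the ratio was 0.512 (0.190 to 1.27) in batch a and 0.0779 (0.0154 to 0.245) in batch b. The 3 noncoding RNAs together were at 0.178 times (0.119 to 0.259) KO. Against WT they were at 0.693 times (0.428 to 1.11) over batches a and b, and at 0.522 times (0.339 to 0.786) with WT c. The 3 coding genes together were at 0.832 times (0.551 to 1.25) KO and, with WT c, at 0.690 times (0.474 to 0.991) WT. Without KO b, in batch a alone, the noncoding RNAs of the Hmga1 add-back were at 0.309 times (0.182 to 0.503) KO.

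In the Hmga2 add-back the noncoding RNAs were nearly absent. They had 5 counts in both libraries together, against 188 in KO and 44 in WT over the same batches. The ratio was 0.0271 (95% interval 0.00869 to 0.0643) to KO and 0.106 (0.0326 to 0.265) to WT. In batch a alone it was 0.0578 (0.0154 to 0.155) to KO and 0.107 (0.0276 to 0.299) to WT. Rian alone had a ratio of 0.0171 (0.00205 to 0.0631) to KO and 0.103 (0.0116 to 0.431) to WT, and Meg3 of 0.0377 (0.00445 to 0.143) and 0.0977 (0.0110 to 0.405). The coding genes were at 0.818 times (0.540 to 1.23) KO and 0.746 times (0.492 to 1.12) WT. With WT c, the noncoding RNAs were at 0.0795 times (0.0252 to 0.192) and the coding genes at 0.678 times (0.464 to 0.976) WT. Dio3, with 14 and 11 counts, had a fitted log2 difference from WT of -0.00 (SE 0.49). Low noncoding sums were not particular to this line. They were 0.118 and 0.0704 CPM here and 0.237, 0.0612 and 0.433 CPM in WT a, b and c of the full-deletion experiment.

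**Figure D4:**
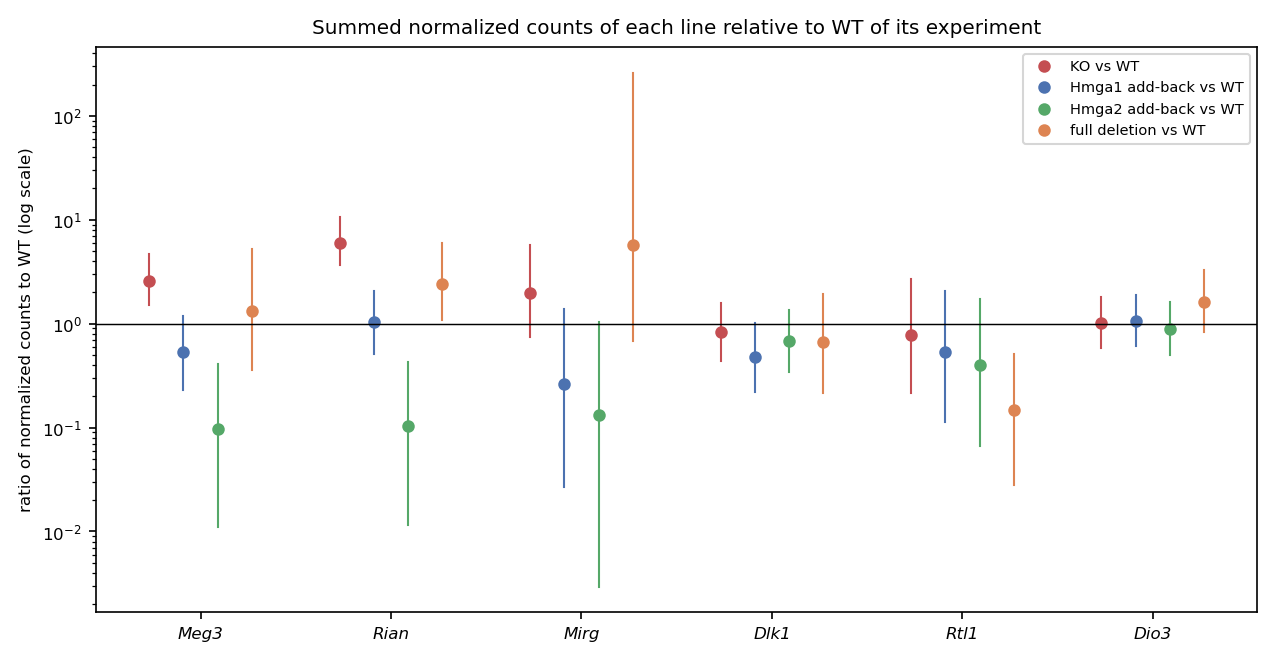
Ratio of summed normalized counts in each line to WT of its experiment (log axis), over batches a and b in the KO experiment and over 3 against 3 libraries in the full-deletion experiment, with exact 95% intervals that cover counting error only. Rian lies at 6.03 in KO and 0.103 in the Hmga2 add-back, and Dio3 between 0.892 and 1.63 in the 4 lines.

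The 3 noncoding RNAs lay below every KO library in the Hmga1 add-back (11.1% of all genes with a mean count of 1 to 20 did) and in the Hmga2 add-back (12.0%). They also lay below every WT library in the Hmga2 add-back (13.8%), and Mirg did in the Hmga1 add-back (13.5%). By edgeR, 0 of the 3 tested genes were called in each of these 4 comparisons. Over all genes, 0.0% were called in the Hmga1 and 0.00719% in the Hmga2 add-back against KO, and 0.0144% and 0.0647% against WT. At an unadjusted p under 0.05, 2 of 3 passed in each add-back against KO (2.8% and 5.09% of all genes). As Meg3 and Rian entered the test through KO, these counts carry no weight. Against WT it was 0 of 3 in the Hmga1 add-back (13.3%) and 1 of 3 in the Hmga2 add-back (16.9%). DESeq2 called 1 of the 3 in the Hmga2 add-back against KO and 0 in the other 3 comparisons, and limma-trend called 0 in all 4. The share of all genes that DESeq2 called is not given here, only their number in the last section. Meg3 and Rian entered this test through KO as well, so nothing is read from these calls. The fitted log2 fold change of Rian was -5.77 (SE 0.72) in the Hmga2 add-back against KO and -2.60 (SE 0.51) in the Hmga1 add-back against KO.

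Among the counts on the 6 genes, the share of the noncoding RNAs followed the same order. It was 43.2%, 47.4% and 54.1% in the WT libraries of the KO experiment and 61.3% and 92.0% in KO. In the Hmga1 add-back it was 37.9% and 52.4%, and in the Hmga2 add-back 12.5% and 5.56%. WT of the full-deletion experiment had 26.3%, 7.69% and 33.3%. The exact binomial interval of KO b, from 85.8% to 96.1%, lay above that of KO a, from 52.0% to 70.1%. The 3 noncoding RNAs also varied together over the 9 libraries. On log2 CPM, Pearson's r was 0.873 between Meg3 and Rian (Spearman's rho 0.833), 0.917 between Meg3 and Mirg and 0.893 between Rian and Mirg, while with Dlk1 it was 0.234 for Meg3 and -0.0869 for Rian. With Rtl1 it was 0.582 for Meg3, 0.402 for Rian and 0.504 for Mirg (rho 0.600, 0.683 and 0.650), and with Dio3 it was negative for all 3. These describe 9 libraries in groups of 2 or 3 that share line, batch and depth.

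**Figure D5:**
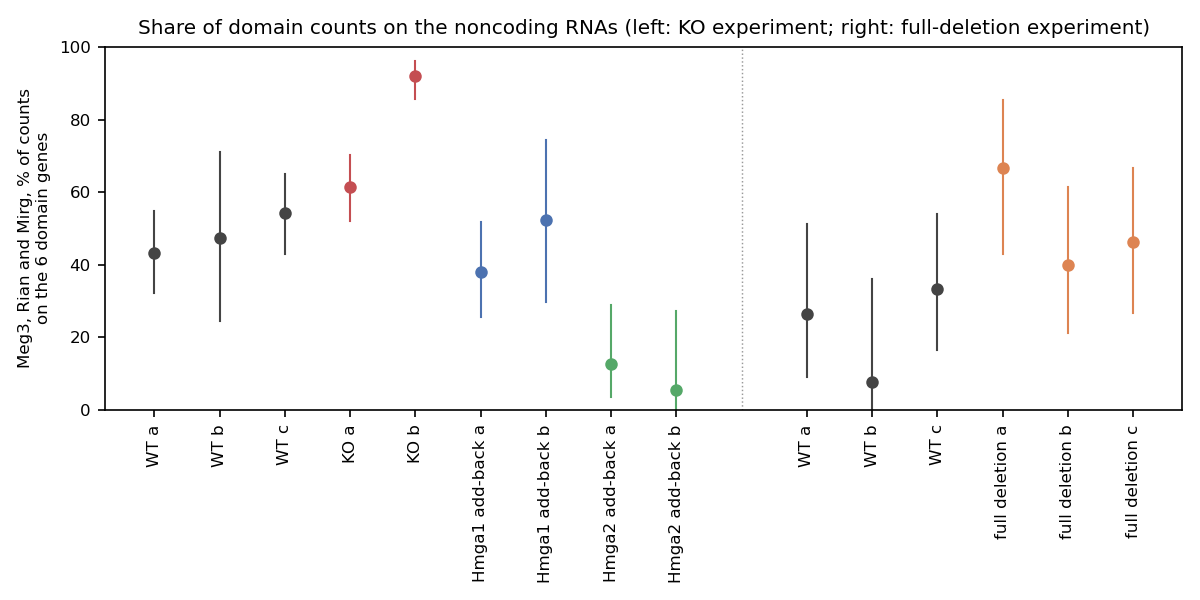
Counts on Meg3, Rian and Mirg as a percentage of the counts on the 6 domain genes in each library, with exact 95% binomial intervals for counting error, KO experiment left and full-deletion experiment right of the dotted line. KO b stands at 92.0%, the Hmga2 add-back libraries at 12.5% and 5.56%, and WT b of the full-deletion experiment at 7.69%.

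The full deletion asks the same question as the KO in a separate clone. Rian had 11, 6 and 6 counts there and 3, 1 and 5 in its WT libraries, and every full-deletion library (0.259 to 0.665 CPM) was above every WT library (0.0612 to 0.241 CPM). The ratio was 2.41 (95% interval 1.07 to 5.91), and 1.95 (0.842 to 5.04) without WT b. Meg3 was at 1, 3 and 3 counts in the full deletion and 2, 0 and 3 in WT, with a ratio of 1.32 (0.361 to 5.27) that fell below 1 without WT b, to 0.949 (0.259 to 3.79). Mirg was at 2, 1 and 3 counts and at 0, 0 and 1, a ratio of 5.66 (0.686 to 260), or 4.07 (0.494 to 187) without WT b. The highest of these levels, 0.665 CPM for Rian, was below the 1.40 CPM of the lower KO library, but these are separate experiments, each with its own WT.

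Rtl1 was the one coding gene that did not overlap, with 1, 2 and 0 counts in the full deletion and 4, 8 and 7 in WT. Its ratio was 0.149 (95% interval 0.0282 to 0.506), and 0.185 (0.0331 to 0.700) without WT b. Dlk1 had 2, 4 and 1 counts against 7, 0 and 3 in WT, and Dio3 had 4, 9 and 13 against 3, 4 and 8, a ratio of 1.63 (0.834 to 3.32), or 1.60 (0.765 to 3.59) without WT b. The ratio of Dlk1 was 0.660 (0.213 to 1.92), or 0.475 (0.153 to 1.38). The coding genes together were at 0.771 times (0.482 to 1.23) WT, or 0.763 times (0.461 to 1.27), and the noncoding RNAs at 2.26 times (1.21 to 4.45), or 1.74 times (0.918 to 3.50) without WT b. Of genes with a mean count of 1 to 20, 14.5% were higher without overlap, as Rian was, and 5.34% lower, as Rtl1 was. None of the 6 genes reached a mean count of 10 in this experiment, so none entered the fit, in which 0.0687% of genes were called.

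The WT line itself had lower levels of most of these genes in the full-deletion experiment than in the KO experiment. Meg3, Rian and Mirg together were at 0.197 times (95% interval 0.106 to 0.342) their WT level in the KO experiment, and Dlk1, Rtl1 and Dio3 together at 0.546 times (0.373 to 0.789). Dlk1 was at 0.303 times (0.135 to 0.617), Dio3 at 0.454 times (0.232 to 0.842) and Rtl1 at 1.32 times (0.649 to 2.70). Day of culture, library preparation and sequencing run may differ between the experiments. The labels do not give them, and they cannot be told apart.

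Markers of other cells that a culture could hold were low beside the ES cell markers. The summed level of 13 genes of fibroblasts, which serve as feeders, was 16.3 to 23.1 CPM in WT, 22.8 to 27.1 in KO, 22.4 to 34.0 in the Hmga1 add-back and 24.8 to 34.4 in the Hmga2 add-back. Within each of these lines the sum was higher in batch a than in batch b. Postn, Lum and Dcn had no count in KO or in either add-back, but only 2, 5 and 4 counts over all 15 libraries. Of the 7 tested fibroblast genes, 0 passed an adjusted p of 0.05 and 2 an unadjusted one in each of KO and the add-backs against WT, and their median log2 fold change was 0.48, 0.67 and 0.63. In the full deletion the sum was 19.1 to 19.3 CPM, above the 11.4 to 16.6 CPM of its WT. Differentiation markers, 12 genes, summed to 81.1 to 116 CPM in WT and 52.0 to 60.7 CPM in KO. The sum was 54.05 to 65.4 CPM in the Hmga1 and 51.2 to 54.5 CPM in the Hmga2 add-back. In the full deletion it was 50.98 to 55.4 CPM, within the 49.98 to 75.6 CPM of its WT. Of 9 tested differentiation genes, 0 passed an adjusted p of 0.05 against WT in KO or either add-back. An unadjusted p under 0.05 was reached by 5 in KO, 3 in the Hmga1 and 5 in the Hmga2 add-back. Their median log2 fold change was -1.19, -0.78 and -1.35. The part of these markers in the levels of the domain genes was not tested.

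No flanking gene passed the test in any comparison of the main fits, while 0 to 4 did over the 13 alternatives of the full deletion. At an adjusted p under 0.05 (edgeR quasi-likelihood, all genes), 0 of 16 tested flanking genes passed in each of the 5 comparisons of the KO experiment and 0 of 15 in the full deletion. Over all genes, 0.0647% passed in KO, 0.0431% with Hmga1 added back and 0.165% with Hmga2 added back (each against WT), 0.0% and 0.0144% in these add-backs against KO, and 8.25% in the full deletion. At an unadjusted p under 0.05 it was 0 of 16 flanking genes in each of the 5 comparisons and 4 of 15 in the full deletion (37.0% of all genes). The median log2 fold change over the flanking genes lay between -0.02 and 0.04, and that over all genes tested between -0.01 and 0.04.

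Imprinted genes elsewhere differed from WT in the Hmga2 add-back in 2 of 22 tested genes of the paternal list, at this threshold (0.165% of all genes passed). Plagl1, a zinc-finger factor and itself imprinted, was at 0.0796 ± 0.0130 CPM (n = 2) and 2.52 ± 0.466 CPM (n = 3) in WT. It had 4 against 177 counts, with an edgeR adjusted p of 0.0176 for a log2 fold change of -4.97 (SE 0.58). Sfmbt2, a Polycomb-related gene, fell by 1.42 on the log2 scale (SE 0.16, edgeR adjusted p = 0.0125), from 96.1 ± 17.2 to 39.3 ± 9.08 CPM. In KO and the Hmga1 add-back (n = 2 each), where neither passed, Plagl1 was at 0.424 ± 0.0447 and 0.141 ± 0.118 CPM and Sfmbt2 at 104.5 ± 3.88 and 53.9 ± 13.3 CPM. Neither gene passed between the Hmga2 add-back and KO. Over the alternatives the adjusted p ranged from 0.000196 to 0.425 for Plagl1 and from 3.12e-12 to 0.264 for Sfmbt2. None of the 18 tested genes of the maternal list passed, nor any imprint regulator, Notch pathway or thyroid hormone gene in the KO experiment. At an unadjusted p under 0.05, 6 of the 18 maternal genes passed between KO and WT, where 12.6% of all genes did. With Hmga1 added back 5 passed against WT (13.3% of all genes), and with Hmga2 added back 9 (16.9%). Against KO, these lines had 2 (2.8%) and 1 (5.09%). In the same order it was 5, 5, 8, 2 and 5 of the 22 paternal genes, and 2, 4, 3, 0 and 2 of the 21 imprint regulators.

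In the full deletion, where 8.25% of all tested genes passed an adjusted p of 0.05, 7 of 21 imprint regulators did. Aff3, a protein that binds the methylated IG-DMR, was higher by 0.74 on the log2 scale (SE 0.11, edgeR adjusted p = 0.0216). Dppa3, which protects methylation in the early embryo, was higher by 0.96 (SE 0.17, adjusted p = 0.0294). Tet2, a demethylation enzyme, fell by 1.005 (SE 0.21, adjusted p = 0.0366), and Eed, a core Polycomb subunit, fell by 0.9967 (SE 0.24, adjusted p = 0.0474). Dnmt3b, Trim28 and Zfp57 were the other 3 that were lower. These calls depend on single libraries. Without WT b 18 of the 21 passed, 2 higher and 16 lower, while without WT c, or without any 1 of the full-deletion libraries, 0 did.

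Of the other lists in the full deletion, 3 of 18 maternal genes passed (Atp10a higher, Cdkn1c and Ube3a lower) and 4 of 22 paternal genes, all lower. Cdkn1c, a growth-restraining cell cycle inhibitor, fell by 1.13 on the log2 scale (SE 0.10, edgeR adjusted p = 0.00913). Peg13, a noncoding RNA, was at 0.119 ± 0.114 CPM (n = 3) and 1.28 ± 0.331 CPM in WT (n = 3), a ratio of 0.0992 (95% interval 0.0413 to 0.206, counts only). Among genes linked to Dlk1, 3 of 17 of the Notch pathway passed, with Nrarp, a feedback inhibitor, higher by 1.28 (SE 0.29, adjusted p = 0.0419) and Jag1 and Notch4 lower. Of the ES cell markers 1 of 10 passed, Fgf4, which fell by 0.70 on the log2 scale (SE 0.12, edgeR adjusted p = 0.0279). Over the alternatives the highest adjusted p was 0.128 for Cdkn1c, 0.182 for Nrarp and 0.160 for Fgf4.

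The genes whose pattern was most like that of Meg3, by the lower of 2 Pearson correlations of log2 CPM (over the 9 and over the 6 libraries) among 13050 genes, were Mien1 (0.876 and 0.850), Gusb (0.821 and 0.902), Mrpl28, Ptgis and Psmg3. For Dlk1 they were Dancr (0.904 and 0.894), Fuca1, Aard, Rps6ka4 and Grwd1. With a prior count of 0.5 in place of 2, 3 and 2 of these 5 genes were again among the first 5. The libraries share lines, batches and depth, and the counts behind both genes are few, so this is a description only.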

How the data were processed

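The authors prepared strand-specific libraries (ScriptSeq) from ribosomal RNA-depleted RNA, demultiplexed with bcl2fastq 2.17, trimmed the first bases of each read, and mapped to mm9 with QuasR and Bowtie, keeping 1 randomly chosen alignment of a multi-mapping read. The deposited values are raw counts per UCSC known gene, on the strand of the gene. Reads outside annotated exons are not counted, and reads from near-identical gene copies are placed at random among them.

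Tests used edgeR 4.0.16 in R 4.3.3 (TMM, quasi-likelihood) on genes averaging 10 counts or more, 13912 (KO experiment) and 13098 (full-deletion experiment), with p-values adjusted by Benjamini-Hochberg within each. A call required an adjusted p below 0.01 with an absolute log2 fold change of 1 or more, and gene lists were read at an adjusted p under 0.05. In the KO experiment letters a, b and c mark a shared preparation day and flow cell, per the study's methods, and entered the model. The difference between batches a and b in WT had a correlation across genes of 0.427 with that in KO, 0.319 in the Hmga1 and 0.339 in the Hmga2 add-back. Replicates are libraries of 1 line. The paper gives a minimum number of independent cultures, and whether each library is a separate culture is not stated. The chi-square per degree of freedom between replicates was 4.04 to 6.75 in the full deletion and 5.78 between WT a and c there. It was 133 and 140 with WT b, and 49.3 to 105.5 in the KO experiment.

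The 6 genes and all lists were chosen with earlier results of these data known. Ratios are of summed counts over summed TMM-scaled library sizes, with exact conditional 95% intervals. RPKM used the exonic length deposited with the counts, and gene positions came from GENCODE on NCBIM37. Depth sets a floor of 3 counts, or 0.0841 to 0.233 CPM per library. Intervals and floors cover counting error only. Of each list and comparison, at most 4 genes past the threshold were named with values, by absolute log2 fold change, and others by name. The tests were also run on simulated counts with 1 fixed dispersion and no batch effect. That run does not show how they behave with the spread of these libraries. Alternatives were DESeq2 1.42.0, its size factors, limma-trend (limma 3.58.1), summed counts, other count minimums, the batch term, the groups compared alone, and leaving out each library. The result of the thyroid hormone list in the full deletion is not reported here.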

Additional observations from a re-analysis of the deposited data

How the results depend on the processing

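The number of genes called moved with the tool. With the thresholds kept, against WT it was 3 in KO, 2 with Hmga1 and 9 with Hmga2 added back, 0 and 1 in these add-backs against KO, and 9 in the full deletion. In this order, the DESeq2 Wald test called 76, 76, 109, 2, 10 and 463. Without a filter on low counts, edgeR called 17, 6, 22, 0, 3 and 31. With only the groups compared, the Hmga2 add-back against WT gave 99 and the Hmga1 add-back against KO 4, limma-trend gave 2 for the Hmga2 add-back against KO, and summed counts gave 3 for the full deletion. Leaving out 1 library gave 0 to 62 in KO, 2 to 37 in the Hmga1 and 3 to 105 in the Hmga2 add-back against WT, 0 to 2 in the Hmga2 add-back against KO, and 1 to 362 in the full deletion. The highest value came without WT b of the experiment in each comparison with WT. The cause was not tested.

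Without the replicate block, KO against WT gave 1 and the Hmga2 add-back against WT 4. In the full-deletion experiment the letters do not pair the samples, since the correlation of deviations was 0.0639, 0.0703 and -0.0546 for a, b and c. A replicate block there gave 4 calls.

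The number of domain genes that did not overlap was recomputed without each library in turn, which was chosen after seeing the data, as were the values within batches, without WT b, and the share over genes with a mean count of 1 to 20. It was 1 to 5 in KO, 1 to 4 in the Hmga1 and 3 to 5 in the Hmga2 add-back against WT, 4 to 5 and 4 to 6 in these add-backs against KO (3 in each with all libraries), and 2 to 3 in the full deletion. With summed counts alone it was 2 in KO, where Mirg joined Rian. With summed counts Rian in KO and the 3 noncoding RNAs in the Hmga2 add-back and in both add-backs against KO still did not overlap. Nor did Rian and Rtl1 in the full deletion. Leaving out a library cannot make separated groups overlap, so that these genes stayed apart there was fixed in advance. The lone library of a group was then compared without a spread of its own. No share over all genes is given for these smaller sets, so the counts carry no weight.

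Depth limits all of these. With 3 counts worth 0.0841 to 0.233 CPM, levels of Mirg and Rtl1 were often at the floor, and differences of a few counts between single libraries are within counting error.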
